A study of Mus musculus with 5 samples.

Results

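Keratinocytes, the epithelial cells that build the epidermis and the hair follicle, made up 138 of the 10611 cells kept from single-cell RNA-seq of mouse ventral skin (1.3%). They were chosen by their transcripts: the keratins Krt5, Krt14, Krt15, Krt1 and Krt10 held at least 1% of a cell's UMIs (unique molecular identifiers, 1 per captured RNA molecule), the fibroblast transcripts Col1a1, Col1a2, Col3a1 and Dcn held under 1%, and no UMI of Ptprc, the leukocyte antigen CD45, was seen. The tested animals were Ikkb_cKO mice (Prx1Cre+Ikkbf/f), in which Cre recombinase removes Ikbkb, the kinase subunit that activates canonical NF-kB signalling, from cells of the Prx1 lineage; the others were wild type (WT). All were C57BL/6J and 28 days old, and each library pooled 2 mice, giving 3 Ikkb_cKO and 2 WT libraries. The labels do not say whether the WT mice carried Cre or the floxed allele. The series set out to learn what NF-kB does in Prx1-lineage fibroblasts of inflamed skin, so the keratinocytes are neighbours of the targeted cells: the Prx1 enhancer is known for driving Cre in the mesenchyme of the limbs and ventral body wall, not in the epidermis.

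Basal keratinocytes sit on the basement membrane and make Krt5 and Krt14, and Krt15 is made by basal cells and by the resting stem cells of the follicle. Cells that leave the basal layer stop making these keratins, switch to Krt1 and Krt10, and later make involucrin, filaggrin and the small proline-rich proteins, which are cross-linked into the cornified envelope of the skin surface. Injured or inflamed epidermis is known for Krt6, Krt16 and Krt17 and for cytokines that call leukocytes.

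The upstream sequences of a basal keratin, Krt5, and of a pair of suprabasal ones, Krt10 and Krt77, are shown because the results turn on the balance between these programmes. Of 8 keratins looked up in RefSeq's promoter windows (GRCm38.p6), 4 had an entry whose start site lay within 50 bases of the gene's end in the GENCODE annotation of GRCm38. The last 120 bases before the start site, none of them transcribed in the annotated gene, read 5′ to 3′ on the gene's strand as follows, with a match to TATAAA in capitals.
Krt5, chr15:101712906-101713025, minus strand: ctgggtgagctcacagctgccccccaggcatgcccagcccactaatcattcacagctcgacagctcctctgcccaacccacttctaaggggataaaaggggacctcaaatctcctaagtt
Krt10, chr11:99389365-99389484, minus strand: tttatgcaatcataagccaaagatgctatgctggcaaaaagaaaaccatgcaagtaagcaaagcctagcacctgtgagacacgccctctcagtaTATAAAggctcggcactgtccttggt
Krt77, chr15:101869706-101869825, minus strand: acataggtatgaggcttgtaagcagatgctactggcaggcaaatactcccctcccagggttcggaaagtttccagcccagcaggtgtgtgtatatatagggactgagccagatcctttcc
Krt10 held the letters TATAAA from 26 to 21 bases before its start, and Krt5 and Krt77 did not hold them on either strand; 6.34% of all 32851 windows of this length did. TGANTCA, the AP-1 type motif, stood on neither strand of these 3 windows and in 3.41% of all windows; it shares no position with TATAAA here. Krt5 lies on chromosome 15 from 101707070 to 101712898 and Krt77 on chromosome 15 from 101858731 to 101869705, in the cluster of type II keratin genes, and Krt10 lies on chromosome 11 from 99385254 to 99389364, in the cluster of type I genes.

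The members were unevenly spread over the libraries. Ikkb_cKO replicates 1, 2 and 3 held 2, 2 and 100 of them, against 12 and 22 in WT replicates 1 and 2, so that 72.5% came from a single library. Summed over its members, a library gave 10409, 6791 and 939694 UMIs in Ikkb_cKO replicates 1, 2 and 3, against 73381 and 136591 in WT replicates 1 and 2, and the median member held 5205, 3396 and 8768 UMIs in Ikkb_cKO replicates 1, 2 and 3, against 5913 and 5762 in WT replicates 1 and 2. Levels are given as CPM, UMI counts scaled to the same total in each library's summed keratinocytes. On that scale 3 UMIs, the limit that a count of 0 allows, correspond to 288 and 442 CPM in Ikkb_cKO replicates 1 and 2, to 3.19 in Ikkb_cKO replicate 3, and to 40.9 and 22.0 in WT replicates 1 and 2. Between 0 and 17 cell barcodes were shared by any pair of libraries, and none of the shared ones was a keratinocyte in both. Intervals and limits cover counting error alone, and p-values measure the spread between libraries of pooled mice.

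The keratin threshold ran through a continuum. The 10 members closest above it had 1.01% to 1.09% of UMIs from the 5 keratins and the 10 kept cells closest below it 0.910% to 0.982%; 9 of each 10 came from Ikkb_cKO replicate 3. The summed level of 12 epithelial genes outside the rule had a median of 37300 CPM in the first and 33810 CPM in the second. Of the 138 members, 83 had keratin shares between 1% and 2%, and the median share by library lay between 1.13% and 2.17%.

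The label held against markers that the rule did not use. All 12 of those epithelial genes (among them Epcam, Cdh1, Trp63, Perp, Sfn, Dsp and Krtdap) were detected in the members, and every member had at least 3 of their UMIs. Their summed level was 17677 to 41014 CPM in the keratinocytes of the 5 libraries, against 25.7 to 221 CPM in fibroblasts and 55.9 to 291 CPM in Ptprc-positive cells. The 10 fibroblast markers summed to 0 to 176 CPM in the members, and 27 members held at least 1 UMI of the 4 fibroblast genes of the rule. Of the 6 Merkel cell markers 5 were at 0 in the members, namely Krt8, Krt20, Atoh1, Piezo2 and Sox2, and so were the melanocyte genes Dct, Pmel, Mlana, Tyrp1 and Tyr and the Langerhans cell gene Cd207. The 5 keratins also gave 23.7 to 115 CPM in fibroblasts and 1.38 to 25.3 CPM in Ptprc-positive cells, the highest of both in Ikkb_cKO replicate 3. Most of this was Krt10, with 58.5 CPM over all fibroblasts, against 0.374 to 0.598 CPM for each of the other 4. Its source was not tested.

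The share of keratinocytes among kept cells spread more widely within Ikkb_cKO than between the genotypes. It was 0.203% (exact 95% binomial interval 0.0246% to 0.732%), 0.218% (0.0264% to 0.785%) and 4.22% (3.45% to 5.11%) in Ikkb_cKO replicates 1, 2 and 3, against 0.389% (0.201% to 0.678%) and 0.677% (0.424% to 1.02%) in WT replicates 1 and 2. Replicates 1 and 2 of Ikkb_cKO were thus below both WT libraries and replicate 3 above them. The mean was 1.55% ± 2.32 (SD, n = 3) in Ikkb_cKO and 0.533% ± 0.204 (SD, n = 2) in WT, a difference of 1.01 percentage points with a two-sided exact permutation p of 1, where the smallest p that 3 against 2 libraries allow is 0.1. Without Ikkb_cKO replicate 3 the difference was -0.322 percentage points. Fewer cells of a type in the skin and fewer cells released by digestion or captured cannot be told apart.

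The balance between suprabasal and basal keratins also varied between libraries, and is given as a description, since the rule used these keratins. A member was called suprabasal-dominant when its Krt1 and Krt10 UMIs outnumbered those of Krt5, Krt14 and Krt15. This held for 0 of 2, 0 of 2 and 68 of 100 members in Ikkb_cKO replicates 1, 2 and 3 (68.0% in the third), against 4 of 12 (33.3%) and 4 of 22 (18.2%) in WT replicates 1 and 2. For each 0 of 2 the exact 95% binomial interval, 0% to 84.2%, covers the share of every other library. Ikkb_cKO replicate 3 had an interval of 57.9% to 77.0%. The intervals were 9.92% to 65.1% and 5.19% to 40.3% in WT replicates 1 and 2. The mean share was 22.7% ± 39.3 (SD, n = 3) in Ikkb_cKO and 25.8% ± 10.7 (SD, n = 2) in WT, a difference of -3.09 percentage points. With every member thinned to 1000 UMIs, which left out 2 members of Ikkb_cKO replicate 3, that library had 67.3%, against 41.7% and 22.7% in WT replicates 1 and 2. The direction of the mean difference turned when WT replicate 1 or either 2-cell library was left out, to between 4.48 and 8.24 percentage points.

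**Figure D1:**
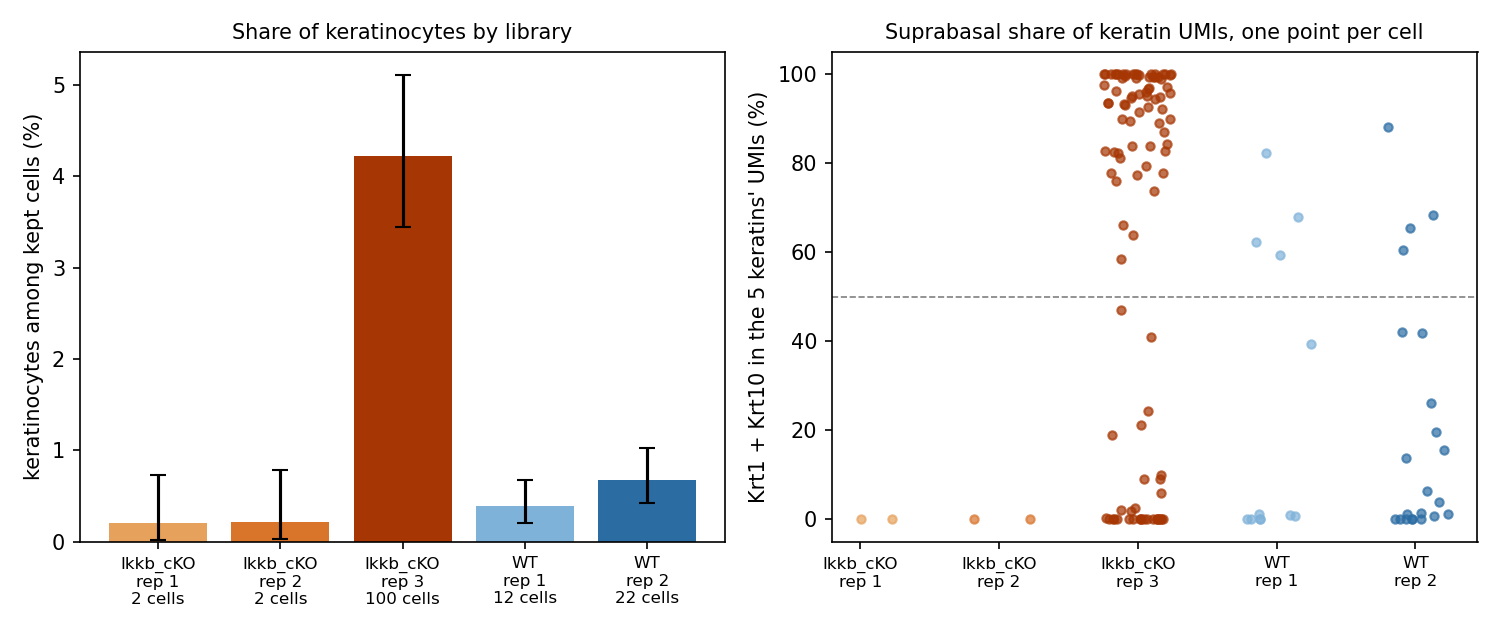
Left, keratinocytes as a percentage of the kept cells of each library, with exact 95% binomial intervals as bars; right, Krt1 and Krt10 as a percentage of the 5 keratins' UMIs in each cell (1 point per cell, spread sideways for sight), with the dashed line at 50%. Ikkb_cKO replicate 3 stands apart at 4.22%, most of its points lie near the top, and both other Ikkb_cKO libraries hold 2 points each at the bottom.

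Keratin by keratin, as the transcripts that chose the members and so a description alone, the libraries differed as follows. Krt10 had 0, 0 and 12353 CPM in Ikkb_cKO replicates 1, 2 and 3, against 4197 and 3324 CPM in WT replicates 1 and 2. Krt5 had 5284, 7068 and 1360.0 CPM in Ikkb_cKO replicates 1, 2 and 3, against 2044 and 4583 CPM in WT replicates 1 and 2, and Krt14 3074, 5301 and 1689 CPM in Ikkb_cKO replicates 1, 2 and 3, against 3257 and 3126 CPM in WT replicates 1 and 2. The 4 cells of Ikkb_cKO replicates 1 and 2 were thus basal by keratins, while Ikkb_cKO replicate 3 was high for Krt10 and low for Krt5. Krt15 had 2594, 5301 and 1834 CPM in Ikkb_cKO replicates 1, 2 and 3, against 8489.9 and 10879 CPM in WT replicates 1 and 2, so that all 3 Ikkb_cKO libraries lay below both WT libraries. Krt1 had 0, 0 and 1577 CPM in Ikkb_cKO replicates 1, 2 and 3, against 1689.8 and 1530.1 CPM in WT replicates 1 and 2. Krt77, a suprabasal keratin outside the rule, had 192, 0 and 12436 CPM in Ikkb_cKO replicates 1, 2 and 3, against 1812 and 1157 CPM in WT replicates 1 and 2.

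Clustering the members alone gave 5 states, which describe the cells and were not tested. State 1 (50 cells) was the one state found in every library, with 2, 2 and 27 cells in Ikkb_cKO replicates 1, 2 and 3, against 7 and 12 in WT replicates 1 and 2. Krt5 (6538 CPM), Krt14 (6916 CPM), Col17a1, Dst and Cxcl14 were among its 50 leading genes, and none of its cells was suprabasal-dominant. Among its 10 genes of highest fold were Gas1, Ptn, Pthlh, Mgst1, Akr1c18, Htra1, Ltbp4, S100a6 and Gja1; Mgst1 is also a sebaceous marker, and the state is therefore called by its number. These genes were not equally widespread: S100a6 was seen in 44 of the 50 cells, Gja1 and Ltbp4 in 26 each and Gas1 in 22, but Pthlh in 7 and Akr1c18 in 1. Ptn, the growth factor pleiotrophin, seen in 19 cells, had 320.0 CPM against 2.24 CPM in the other members.

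State 3 (19 cells) held all the remaining WT cells, with 0, 0 and 4 cells in Ikkb_cKO replicates 1, 2 and 3, against 5 and 10 in WT replicates 1 and 2. Its leading gene was Mt4, a metallothionein of stratified epithelia, with 4027 CPM against 353 CPM in the other members, followed by Capns2, Id1, Prdx6, Dgcr6, Anxa8, Ovol1, Txnip, Zfp36 and Mgst3. Ovol1 encodes a transcription factor of keratinocyte differentiation, and 12 of the 19 cells were suprabasal-dominant.

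States 2, 4 and 5 came from Ikkb_cKO replicate 3 alone and may be features of that library. State 2 (42 cells) was granular-like by Cnfn, Flg, Ivl, Nccrp1 and Asprv1, markers of the layer in which the cornified envelope forms. Ivl and Asprv1 were widespread, in 39 and 41 of the 42 cells, while Cnfn was seen in 9, Nccrp1 in 8 and Flg in 4. The name thus rests mainly on the first pair, which was not particular to state 2. In state 5 Ivl had 269 CPM (8 of 13 cells) and Asprv1 1552 CPM (11 of 13 cells), against 847 and 2365 CPM in state 2. Other listed granular markers did not follow. Lor and Flg2 were higher in state 1, though in 2 and 1 of its cells, and Casp14 in state 5. Lce1a1 and Lce1b were at 0. Dnase1l3 (38 cells), Ppif (33 cells), Srxn1 (25 cells) and Sprr2h (20 cells) were also among the 10 leading genes, as were Crct1 (10 cells) and Ereg, an EGF-family growth factor (6 cells). Ccl20, a chemokine gene among the 10, came from 1 cell, which held all its 59 UMIs. State 4 (14 cells) was led by Aqp3, the water and glycerol channel, Ifi202b, Ccl27a, Krt16, Clca3a2, Ncl, Cldn1, Phlda1 and Ly6d, with folds over the other members (1 UMI added to these) between 1.96 and 3.47, and has no name. State 5 (13 cells) was upper follicle-like by Krt79, Krt17, Defb6 and Cst6. Cst6 was nearly as high in state 2, with 1213 CPM against 1282 CPM in state 5. Other listed markers of the upper follicle did not single out state 5. Plet1 had 1536 CPM there, against 1965 and 2142 CPM in states 2 and 4, and Krt80 602 CPM, against 797 CPM in state 2. Lrig1 was highest in state 1, and Gjb6 was at 0 in state 5. The name thus rests mainly on Krt79, seen in 12 of the 13 cells, and Krt17, seen in all 13. Krt79, which marks the funnel of the hair follicle, had 6942 CPM against 205 CPM in the other members, and Klk7, a protease of the cornified layer, had 2747 CPM against 471 CPM in the other members. At resolutions of 0.3 and 1.0 in place of 0.5 the members fell into 3 and 6 clusters.

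**Figure D2:**
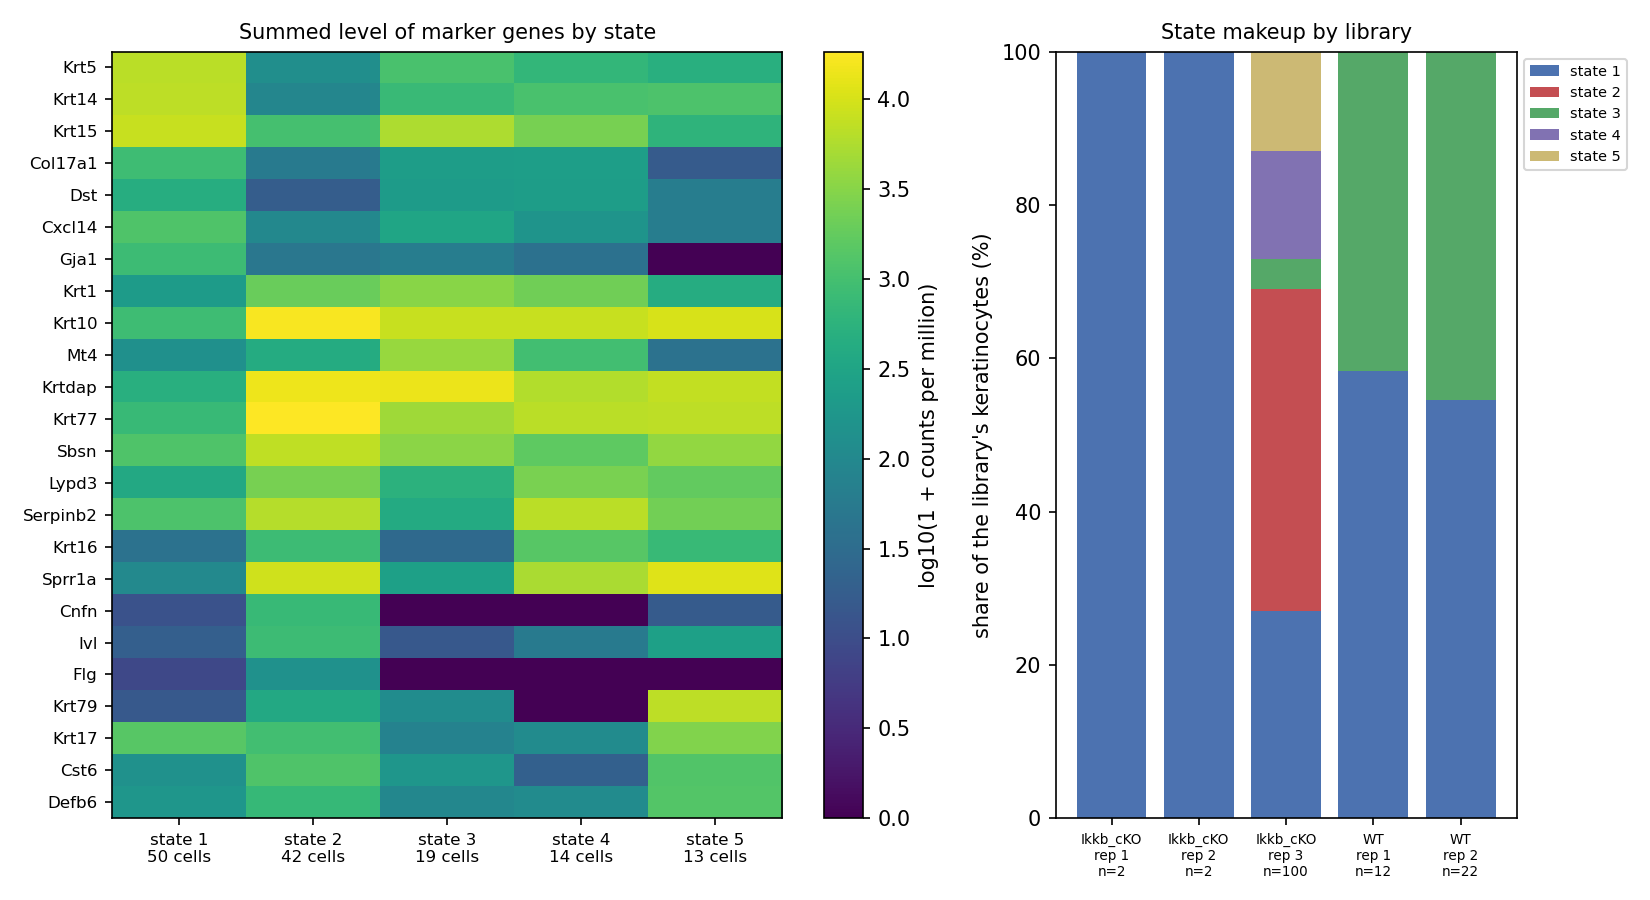
Left, summed level of 24 genes in each state as log10 of 1 plus CPM; right, the share of each library's keratinocytes in each state, with the number of cells under the bars. States 2, 4 and 5 appear in Ikkb_cKO replicate 3 alone, and states 1 and 3 hold all WT members.

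Across the genome, no gene passed the test of Ikkb_cKO against WT in keratinocytes. In simulated data this test missed most genes changed by a factor of 2 or 4, so such changes could go unseen. UMIs were summed per library, and 1221 genes were abundant enough to test with edgeR's quasi-likelihood test. After Benjamini-Hochberg adjustment, 0 were called at 0.05 (0%), 166 had an unadjusted p under 0.05, and the lowest adjusted p was 0.0849; DESeq2 called 3 and limma voom 7. The filter asks for enough counts in at least 2 libraries. Genes with nearly all their counts in Ikkb_cKO replicate 3, such as Sprr1a, were therefore not among the 1221. Without the filter 0 of 12439 were called, with 899 at an unadjusted p under 0.05. A gene could also reach the filter through libraries of 1 genotype alone, and the filter then partly sets its direction. Of the genes named below, some did so through Ikkb_cKO, such as Krt16, Skint3, Cdh1, Cd44, Gja1, Hbegf, Tnc, Hspa1b and Notch1. Others, such as Gadd45g, Txnip, Dst, Mt4, Stmn1 and Tubb5, did so through WT. In Ikkb_cKO replicate 2, 1 UMI is 147 CPM. The count moved with the 2-cell libraries. Without them, in a fit that sets Ikkb_cKO replicate 3 alone against the WT pair and assumes that it varies as they do, 743 of 2479 genes were called (30%), 526 higher (21.2%) and 217 lower (8.75%). With a lone library in an arm the count filter also lets in genes that only that library holds. Leaving out Ikkb_cKO replicate 1 gave 85 calls and leaving out replicate 2 gave 101. Leaving out Ikkb_cKO replicate 3, with 4 cells remaining, gave 44 of 573 (7.68%).

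The median log2 fold change over all 1221 genes was -0.16, with 530 positive and 691 negative. Gadd45g, a growth arrest and stress gene, had the smallest p. It had 0, 0 and 7.45 CPM in Ikkb_cKO replicates 1, 2 and 3, against 204 and 146 CPM in WT replicates 1 and 2, a log2 fold change of -4.42 (SE 0.74, edgeR adjusted p = 0.0849). Txnip, which binds thioredoxin, had 0, 295 and 33.0 CPM in Ikkb_cKO replicates 1, 2 and 3, against 1022 and 527 CPM in WT replicates 1 and 2, a log2 fold change of -4.11 (SE 0.87, edgeR adjusted p = 0.104). For Txnip every Ikkb_cKO library was below both WT libraries. For Gadd45g this was seen in Ikkb_cKO replicate 3 alone, since the 0s of replicates 1 and 2 allow up to 288 and 442 CPM. They were named for their p after the values were seen. The tested genes below were picked for small p within their lists. The share of all 1221 genes whose genotypes separate fully by library was not counted.

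Of 16 genes known from wounded or activated epidermis, keratins and small proteins such as the Sprr1 pair, 2 were tested and 0 called. Their median log2 fold change was 4.28. Of these 2, Krt16 reached the count filter through Ikkb_cKO libraries alone, so that median is partly set by the filter. Krt17, a keratin of the follicle and of wounded epidermis on chromosome 11 from 100256217 to 100261029, had 4899.6, 8688 and 1149 CPM in Ikkb_cKO replicates 1, 2 and 3, against 599.6 and 161 CPM in WT replicates 1 and 2, a log2 fold change of 3.16 (SE 0.79, edgeR adjusted p = 0.104). All Ikkb_cKO libraries were above both WT libraries. Krt17 passed by DESeq2 (adjusted p = 0.000926), and by edgeR without Ikkb_cKO replicate 1 (adjusted p = 0.0466) or replicate 3 (adjusted p = 0.019). Over its alternatives the adjusted p was as high as 0.996. Without both 2-cell libraries, which leaves Ikkb_cKO replicate 3 alone against WT, the log2 fold change of Krt17 was 1.83. Krt16, another keratin of injured epidermis, lies on chromosome 11 from 100246091 to 100248902. It had 0, 147 and 744 CPM in Ikkb_cKO replicates 1, 2 and 3, against 13.6 and 7.32 CPM in WT replicates 1 and 2, a log2 fold change of 5.40 (SE 1.32, edgeR adjusted p = 0.104). The 0 in Ikkb_cKO replicate 1 lies under that library's limit of 288 CPM. Krt16 passed without Ikkb_cKO replicate 1 (edgeR adjusted p = 0.0124) and under the stricter cell filter (edgeR adjusted p = 0.0175). Over its alternatives the adjusted p was as high as 0.801. Without both 2-cell libraries, which leaves Ikkb_cKO replicate 3 alone against WT, the log2 fold change of Krt16 was 6.33. The untested members of the group were read by their counts. Sprr1a, a small proline-rich precursor of the cornified envelope, had 0, 0 and 6703 UMIs in Ikkb_cKO replicates 1, 2 and 3, against 2 and 1 UMIs in WT replicates 1 and 2. In Ikkb_cKO replicate 3 that is 7133 CPM, against 27.3 and 7.32 CPM in WT replicates 1 and 2. The other Ikkb_cKO libraries held none. Sprr1b had 0, 0 and 783 UMIs in Ikkb_cKO replicates 1, 2 and 3, against 0 and 0 UMIs in WT replicates 1 and 2, or 833 CPM in Ikkb_cKO replicate 3. The whole group summed to 4899.6, 9571 and 10288 CPM in Ikkb_cKO replicates 1, 2 and 3, against 681 and 190.3 CPM in WT replicates 1 and 2. Sprr1a made up most of it in Ikkb_cKO replicate 3.

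Of 23 cornified envelope genes 1 was tested and 0 called, and the group summed to 192, 147 and 13137 CPM in Ikkb_cKO replicates 1, 2 and 3, against 477 and 447 CPM in WT replicates 1 and 2. Ppl, periplakin, had 192, 147 and 324 CPM in Ikkb_cKO replicates 1, 2 and 3, against 204 and 132 CPM in WT replicates 1 and 2, a log2 fold change of 0.64 (SE 0.61, edgeR adjusted p = 0.636). Ivl, involucrin, had 0, 0 and 485 UMIs in Ikkb_cKO replicates 1, 2 and 3, against 0 and 1 UMIs in WT replicates 1 and 2. Nearly all the counts of the group thus lay in Ikkb_cKO replicate 3, where states 2 and 5 were found. Of 20 suprabasal differentiation genes 12 were tested and 0 called, with a median of 0.32. Skint3, an epidermal butyrophilin-like gene, had 0, 147 and 172 CPM in Ikkb_cKO replicates 1, 2 and 3, against 13.6 and 7.32 CPM in WT replicates 1 and 2, a log2 fold change of 3.79 (SE 1.00, edgeR adjusted p = 0.124). Lypd3, a suprabasal surface protein, had 961, 295 and 1989 CPM in Ikkb_cKO replicates 1, 2 and 3, against 232 and 307 CPM in WT replicates 1 and 2, a log2 fold change of 2.00 (SE 0.82, edgeR adjusted p = 0.331); the lowest Ikkb_cKO library lay between the WT ones. Of 20 barrier lipid genes 3 were tested and 0 called. Elovl1, which elongates very long fatty acids, had a log2 fold change of 1.61 (SE 0.75, edgeR adjusted p = 0.348), and Alox12e, an epidermal lipoxygenase, a log2 fold change of 1.48 (SE 0.82, edgeR adjusted p = 0.423).

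Junction genes had a median log2 fold change of 1.07, with 10 of 18 tested, 9 of them positive, and 0 called. Over all 1221 genes tested 530 were positive. Cdh1, the E-cadherin of adherens junctions, had 192, 0 and 539.5 CPM in Ikkb_cKO replicates 1, 2 and 3, against 27.3 and 29.3 CPM in WT replicates 1 and 2, a log2 fold change of 3.62 (SE 0.94, edgeR adjusted p = 0.118). Gja1, the gap junction protein connexin 43, had 2786, 1473 and 231 CPM in Ikkb_cKO replicates 1, 2 and 3, against 0 and 109.8 CPM in WT replicates 1 and 2, a log2 fold change of 3.93 (SE 1.20, edgeR adjusted p = 0.233). Gja1 was higher in every Ikkb_cKO library than in either WT library, and Cdh1 in 2 of 3. Among 13 genes of basal adhesion, 6 tested and 0 called, the median was -0.83. Cd44, the hyaluronan receptor, had 384, 589 and 353 CPM in Ikkb_cKO replicates 1, 2 and 3, against 68.1 and 58.6 CPM in WT replicates 1 and 2, a log2 fold change of 2.47 (SE 0.61, edgeR adjusted p = 0.104). It ran against the group's median and was above both WT libraries in all 3 Ikkb_cKO libraries. Dst, a linker of keratin filaments to hemidesmosomes, had 96.1, 0 and 121 CPM in Ikkb_cKO replicates 1, 2 and 3, against 273 and 447 CPM in WT replicates 1 and 2, a log2 fold change of -1.78 (SE 0.64, edgeR adjusted p = 0.274). Of 13 basal identity genes 8 were tested and 0 called (median -0.57). Id3, an inhibitor of differentiation factors, had a log2 fold change of -1.63 (SE 0.74, edgeR adjusted p = 0.348), and Tfap2a, an epidermal transcription factor, a log2 fold change of 1.35 (SE 0.67, edgeR adjusted p = 0.361).

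Of 19 antioxidant genes, the metallothioneins among them, 8 were tested, all with negative log2 fold changes (median -1.86), and 0 called. Over all 1221 genes tested 691 were negative. Of the antioxidant genes tested, some, such as Mt4, reached the count filter through WT libraries alone, so their directions and the median are partly set by the filter. Mt1, which binds zinc and copper, had 576, 1031 and 1937 CPM in Ikkb_cKO replicates 1, 2 and 3, against 7168 and 5586 CPM in WT replicates 1 and 2, a log2 fold change of -2.51 (SE 0.60, edgeR adjusted p = 0.104). Mt4 had 0, 0 and 397 CPM in Ikkb_cKO replicates 1, 2 and 3, against 3938 and 1991 CPM in WT replicates 1 and 2, a log2 fold change of -3.73 (SE 0.96, edgeR adjusted p = 0.135). Every Ikkb_cKO library was below both WT libraries for both genes. Mt1 passed by DESeq2 (adjusted p = 0.0041) and by limma voom (adjusted p = 0.0274). Over its alternatives the adjusted p was as high as 0.791. Without both 2-cell libraries, which leaves Ikkb_cKO replicate 3 alone against WT, the log2 fold change of Mt1 was -1.62. Of 30 cell cycle genes 4 were tested, all with negative values (median -1.32) and 0 called; Stmn1, a tubulin-binding protein of dividing cells, had 96.1, 295 and 55.3 CPM in Ikkb_cKO replicates 1, 2 and 3, against 191 and 373 CPM in WT replicates 1 and 2, a log2 fold change of -2.04 (SE 0.68, edgeR adjusted p = 0.25). Tubb5 had a log2 fold change of -1.74 (SE 0.67, edgeR adjusted p = 0.307). Stmn1 and Tubb5 reached the count filter through WT libraries alone, so their directions and the median are partly set by the filter. Mki67, the proliferation antigen, had 0, 0 and 0 UMIs in Ikkb_cKO replicates 1, 2 and 3, against 1 and 8 UMIs in WT replicates 1 and 2. Its UMIs lay in 3 cells, and Mki67 was neither tested nor picked by the naming rule. Other genes of dividing cells were seen in Ikkb_cKO replicate 3. Top2a had 0, 0 and 6 UMIs in Ikkb_cKO replicates 1, 2 and 3, against 3 and 7 UMIs in WT replicates 1 and 2.

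**Figure D3:**
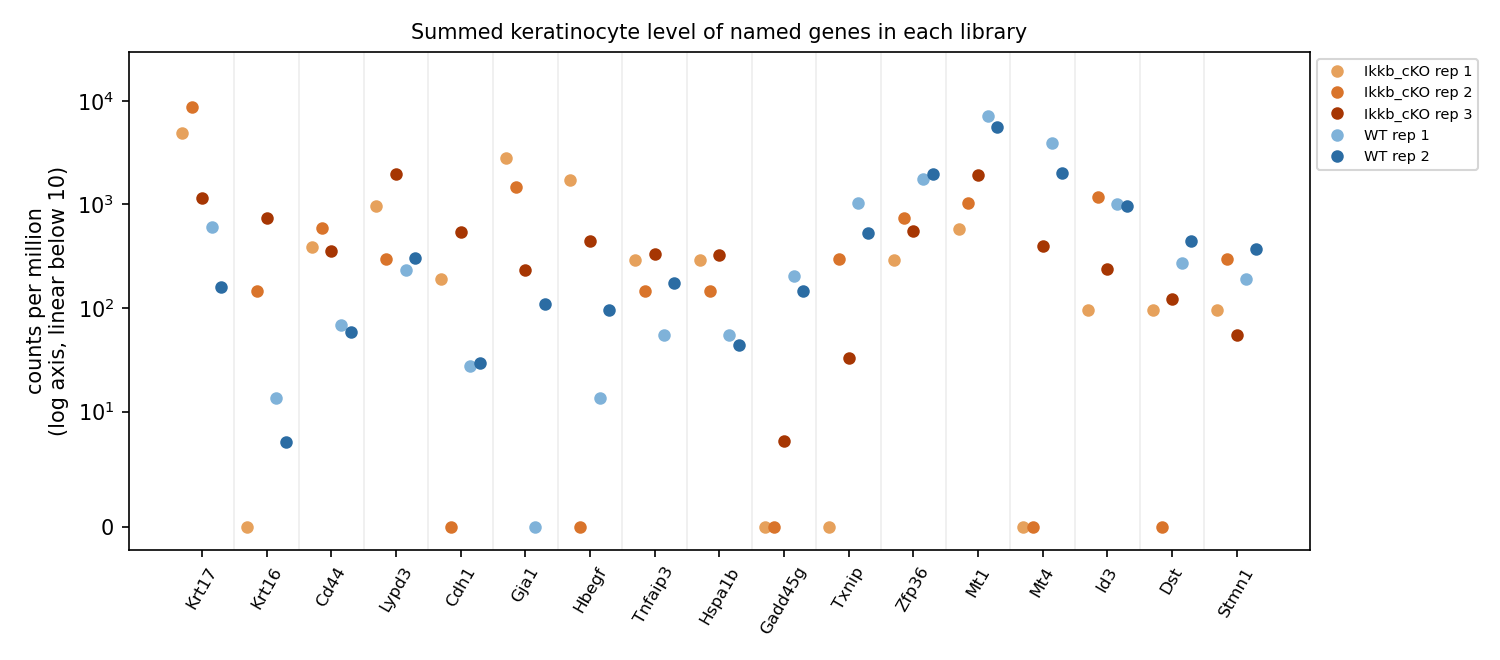
Level of 17 named genes in the summed keratinocytes of each library, in CPM on a log axis that is linear below 10. Points at 0 in Ikkb_cKO replicates 1 and 2 stand for libraries of 2 cells; Krt17 and Cd44 are higher and Mt1 and Mt4 lower in every Ikkb_cKO library than in either WT library.

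Immediate early and heat shock genes, which digestion of tissue is known to raise, were split. Of 22 listed 19 were tested, 6 with positive and 13 with negative values (median -0.36) and 0 called. Hspa1b, a heat shock protein, had 288, 147 and 322 CPM in Ikkb_cKO replicates 1, 2 and 3, against 54.5 and 43.9 CPM in WT replicates 1 and 2, a log2 fold change of 2.48 (SE 0.67, edgeR adjusted p = 0.135). Zfp36, which destabilises cytokine messages, had 288, 736 and 551 CPM in Ikkb_cKO replicates 1, 2 and 3, against 1744 and 1947 CPM in WT replicates 1 and 2, a log2 fold change of -2.06 (SE 0.59, edgeR adjusted p = 0.163). Neither gene's groups overlapped, with Hspa1b resting on 3 and 1 UMIs in Ikkb_cKO replicates 1 and 2. Their part in the other differences was not tested. Mitochondrial genes, 12 of 13 tested with 0 called, had a median of 0.20; mt-Atp8 had a log2 fold change of -1.42 (SE 0.75, edgeR adjusted p = 0.389) and mt-Nd3 a log2 fold change of 1.09 (SE 0.59, edgeR adjusted p = 0.411).

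Genes through which keratinocytes speak to leukocytes were mostly too low to test. Of 25 alarmin, cytokine and growth factor genes 1 was tested: Hbegf, an EGF receptor ligand, had 1729, 0 and 443 CPM in Ikkb_cKO replicates 1, 2 and 3, against 13.6 and 95.2 CPM in WT replicates 1 and 2, a log2 fold change of 3.19 (SE 1.06, edgeR adjusted p = 0.26). Tslp, the keratinocyte alarmin known in atopic skin, had 0, 0 and 7 UMIs in Ikkb_cKO replicates 1, 2 and 3, against 0 and 0 UMIs in WT replicates 1 and 2, and Il33 had 0, 0 and 21 UMIs in Ikkb_cKO replicates 1, 2 and 3, against 1 and 7 UMIs in WT replicates 1 and 2. Il1a had 0, 0 and 8 UMIs in Ikkb_cKO replicates 1, 2 and 3, against 0 and 0 UMIs in WT replicates 1 and 2, and S100a8, a calprotectin subunit, had 0, 0 and 17 UMIs in Ikkb_cKO replicates 1, 2 and 3, against 0 and 0 UMIs in WT replicates 1 and 2. For these low genes a difference was not detectable at this depth, since the WT limit of 3 UMIs corresponds to 40.9 and 22.0 CPM. Areg, amphiregulin, had 0, 0 and 339 UMIs in Ikkb_cKO replicates 1, 2 and 3, against 0 and 9 UMIs in WT replicates 1 and 2, and Il1rn, the interleukin-1 receptor antagonist, 0, 0 and 265 UMIs in Ikkb_cKO replicates 1, 2 and 3, against 3 and 5 UMIs in WT replicates 1 and 2. Of 14 chemokines 2 were tested and 0 called (median -0.13); Ccl27a, which attracts skin-homing T cells, had 288, 736 and 711 CPM in Ikkb_cKO replicates 1, 2 and 3, against 1186 and 769 CPM in WT replicates 1 and 2, a log2 fold change of -0.91 (SE 0.63, edgeR adjusted p = 0.503). Ccl20, the ligand of CCR6, had 0, 0 and 59 UMIs (all in 1 cell) in Ikkb_cKO replicates 1, 2 and 3, against 0 and 0 UMIs in WT replicates 1 and 2. These genes other than Hbegf and Ccl27a were named after their values were seen.

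Among 18 genes that IL-4 and IL-13 are known to control, 4 were tested and 0 called (median 1.67). Serpinb2, a serpin of differentiating keratinocytes, had 0, 0 and 4809 CPM in Ikkb_cKO replicates 1, 2 and 3, against 123 and 388 CPM in WT replicates 1 and 2, a log2 fold change of 2.83 (SE 2.42, edgeR adjusted p = 0.629). Tnc, the matrix protein tenascin C, had 1441, 295 and 24.5 CPM in Ikkb_cKO replicates 1, 2 and 3, against 0 and 14.6 CPM in WT replicates 1 and 2, a log2 fold change of 4.58 (SE 2.44, edgeR adjusted p = 0.439). Of 26 NF-kB pathway genes 5 were tested and 0 called (median 0.39). Tab2, an adaptor of the TAK1 kinase, had a log2 fold change of 1.87 (SE 0.74, edgeR adjusted p = 0.318), and Tnfaip3, the NF-kB target A20, had 288, 147 and 331 CPM in Ikkb_cKO replicates 1, 2 and 3, against 54.5 and 176 CPM in WT replicates 1 and 2, a log2 fold change of 1.15 (SE 0.66, edgeR adjusted p = 0.437). Of 32 interferon response genes 4 were tested and 0 called, with a median of 0.03, and of 17 antigen presentation genes 5 were tested and 0 called. H2-Q4, a non-classical class I molecule, had 192, 147 and 73.4 CPM in Ikkb_cKO replicates 1, 2 and 3, against 40.9 and 58.6 CPM in WT replicates 1 and 2, a log2 fold change of 0.76 (SE 0.70, edgeR adjusted p = 0.624). Of 24 Notch, Wnt and hedgehog genes 3 were tested and 0 called (median 1.38), with Ctnnb1 (beta-catenin) at a log2 fold change of 1.34 (SE 0.60, edgeR adjusted p = 0.348) and Notch1 at a log2 fold change of 2.29 (SE 1.04, edgeR adjusted p = 0.348). Notch1 reached the count filter through Ikkb_cKO libraries alone, so that median is partly set by the filter. Of 5 sex-linked genes 1 was detected and 0 were called.

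Ikbkb itself, on chromosome 8 from 22659212 to 22706589, was too low to test in these cells, with 2, 0 and 19 UMIs in Ikkb_cKO replicates 1, 2 and 3, against 1 and 0 UMIs in WT replicates 1 and 2. Counts from the 3′ end of a message need not cover the part that Cre removes, so they do not check the deletion. Prrx1, the gene whose enhancer drives Cre, had 0 UMIs in the keratinocytes of every library.

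Within the suprabasal-dominant members, which only Ikkb_cKO replicate 3 (68 cells) and the WT pair (4 cells each) held, 144 of 617 genes were called (23.3%), 127 higher (20.6%) and 17 lower (2.76%), again with a lone Ikkb_cKO library, whose genes the filter lets in also where WT holds none. The cells compared sat in different states: 41, 11 and 12 of the Ikkb_cKO cells were in states 2, 4 and 5 and 4 in state 3, against all 8 WT cells in state 3. Genotype and state cannot be told apart here. Krt17 had 1087 CPM in Ikkb_cKO replicate 3, against 0 and 0 CPM in WT replicates 1 and 2. It was seen in 7 of the 42 cells of state 2, 5 of the 14 of state 4 and all 13 of state 5. In state 3, where the 8 WT cells sat, it was seen in 1 of 19 cells. No fold is given, since 0 UMIs in those 8 cells set no limit on it. Krt16 had 828 CPM in Ikkb_cKO replicate 3, against 0 and 0 CPM in WT replicates 1 and 2. It was seen in 3 of the 19 cells of state 3. Neither has a test, since the Ikkb_cKO library alone brought them through the filter. Serpinb2 had 5409.8 CPM in Ikkb_cKO replicate 3, against 286 and 297 CPM in WT replicates 1 and 2 (log2 fold change 4.49). Serpinb2, with 7 and 10 UMIs in WT replicates 1 and 2, was higher in these cells of that library. Lypd3, with 12 and 23 UMIs in WT replicates 1 and 2, was higher there by 2.23 on the log2 scale. This fit holds no spread between Ikkb_cKO libraries, so only the sizes of these differences are given. Cd44 had 363 CPM in Ikkb_cKO replicate 3, against 40.8 and 89.0 CPM in WT replicates 1 and 2, where these were 1 and 3 UMIs. Sprr1a had 8829.6 CPM in Ikkb_cKO replicate 3, against 0 and 29.7 CPM in WT replicates 1 and 2, Krt77 15123 CPM in Ikkb_cKO replicate 3, against 4162 and 1958 CPM in WT replicates 1 and 2, and Krt79 1414 CPM in Ikkb_cKO replicate 3, against 0 and 0 CPM in WT replicates 1 and 2. Krtdap, a secreted protein of suprabasal cells, ran the other way, with 12279 CPM in Ikkb_cKO replicate 3, against 23623 and 13886 CPM in WT replicates 1 and 2. Mt4 had 438 CPM in Ikkb_cKO replicate 3, against 8690.3 and 4154 CPM in WT replicates 1 and 2 (log2 fold change -3.58, edgeR adjusted p = 0.0669), which did not pass.

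Within the basal-dominant members, present in all 5 libraries, 0 of 691 genes were called (0%), with 124 at an unadjusted p under 0.05, and within state 1 alone 0 of 537, with 93. Krt17 had a log2 fold change of 3.03 there (edgeR adjusted p = 0.21), Cd44 of 2.54 (0.127), Mt1 of -1.98 (0.224) and Mt4 of -3.03 (0.105). Each kept the direction it had over all members. That is no separate result, since these cells are part of the same members. All members of Ikkb_cKO replicates 1 and 2 are basal-dominant and in state 1, so their counts are the same in each fit.

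**Figure D4:**
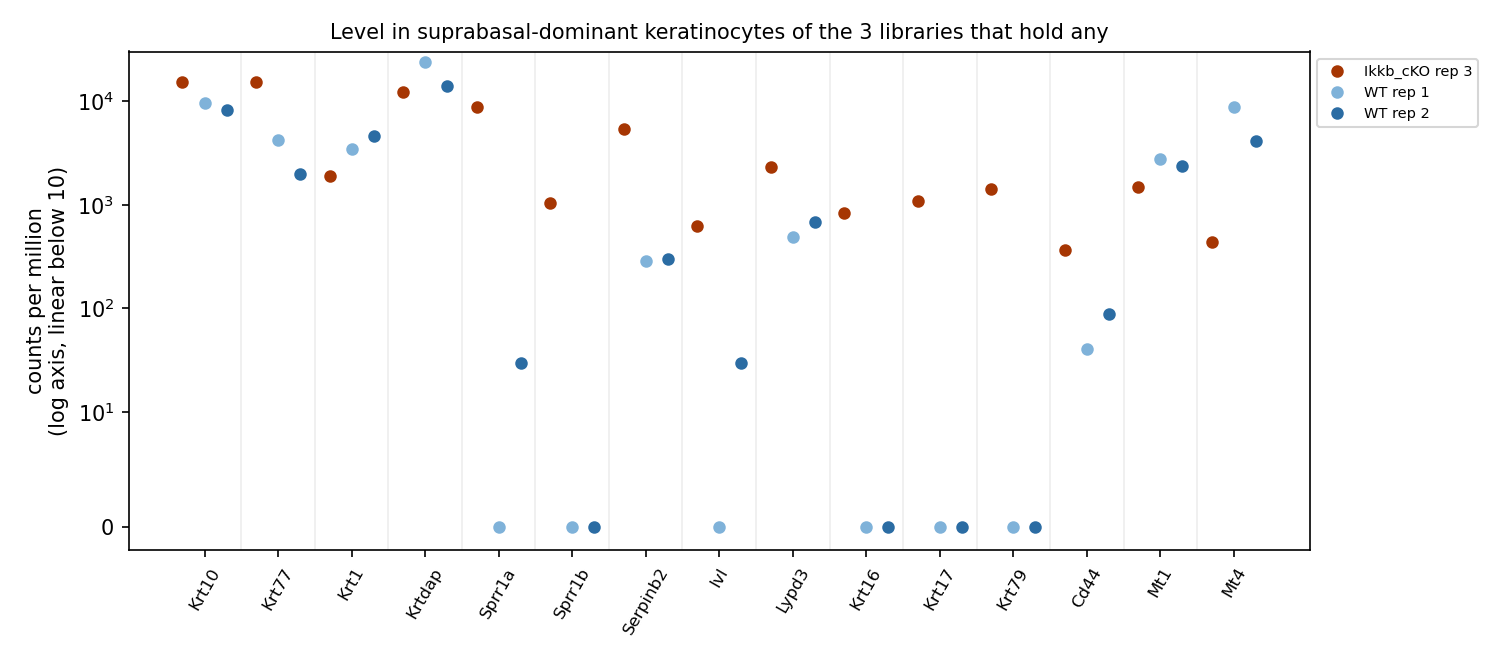
Level of 15 genes in the summed suprabasal-dominant keratinocytes of Ikkb_cKO replicate 3 (68 cells), WT replicate 1 (4 cells) and WT replicate 2 (4 cells), in CPM on a log axis that is linear below 10. Krt16, Krt17, Krt79 and Sprr1b were at 0 in both WT libraries, and Krt1, Krtdap, Mt1 and Mt4 were lower in Ikkb_cKO replicate 3 than in either WT library.

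The genotype effect in keratinocytes was set against that in the 5545 fibroblasts of the same libraries. The difference of the log2 effects passed the test for 115 of 9495 genes (1.21%), 23 positive (0.242%) and 92 negative (0.969%). Without WT replicate 1 it did for 21 genes and without WT replicate 2 for 8, so the calls rest on the WT pair. Sprr1a had 0, 0 and 6703 UMIs in the keratinocytes of Ikkb_cKO replicates 1, 2 and 3, against 2 and 1 UMIs in those of WT replicates 1 and 2, and 2.06, 0 and 54.1 CPM in the fibroblasts of Ikkb_cKO replicates 1, 2 and 3, against 27.2 and 39.3 CPM in those of WT replicates 1 and 2, a difference of 7.69 (SE 1.49, edgeR adjusted p = 0.000242). Without Ikkb_cKO replicate 3 that difference was -3.42. Sdc1, the epithelial proteoglycan syndecan 1, had 13, 7 and 450 UMIs in the keratinocytes of Ikkb_cKO replicates 1, 2 and 3, against 12 and 34 UMIs in those of WT replicates 1 and 2. Its fibroblast level was 45.3, 49.3 and 39.0 CPM in the fibroblasts of Ikkb_cKO replicates 1, 2 and 3, against 185 and 204 CPM in those of WT replicates 1 and 2, a difference of 3.33 (SE 0.91, edgeR adjusted p = 0.028). For Sdc1 the fibroblasts of all Ikkb_cKO libraries were below those of both WT libraries. On the negative side, Ctgf, a matricellular target of mechanical signalling, had 0, 1 and 0 UMIs in the keratinocytes of Ikkb_cKO replicates 1, 2 and 3, against 4 and 10 UMIs in those of WT replicates 1 and 2, and 23.7, 34.2 and 201 CPM in the fibroblasts of Ikkb_cKO replicates 1, 2 and 3, against 16.3 and 16.8 CPM in those of WT replicates 1 and 2, a difference of -9.03 (SE 1.53, edgeR adjusted p = 1.22e-05). S100a4, a calcium-binding protein of motile cells, had 0, 1 and 3 UMIs in the keratinocytes of Ikkb_cKO replicates 1, 2 and 3, against 1 and 6 UMIs in those of WT replicates 1 and 2, and 16.5, 36.1 and 408 CPM in the fibroblasts of Ikkb_cKO replicates 1, 2 and 3, against 26.9 and 25.7 CPM in those of WT replicates 1 and 2. Ly6d had 0, 5 and 5324 UMIs in the keratinocytes of Ikkb_cKO replicates 1, 2 and 3, against 255 and 433 UMIs in those of WT replicates 1 and 2. In CPM Ikkb_cKO replicate 3 had 5666, against 3475 and 3170.1 in WT replicates 1 and 2. In fibroblasts it had 1.03, 0 and 26.1 CPM in the fibroblasts of Ikkb_cKO replicates 1, 2 and 3, against 0.0966 and 0.169 CPM in those of WT replicates 1 and 2, a difference of -6.32 (SE 1.33, edgeR adjusted p = 0.00095). The fibroblast value of Ly6d was highest in the library whose fibroblasts also held the most keratin UMIs (115 CPM, against 55.9 and 57.2 CPM in WT), and the part of free RNA in the result was not tested.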

How the data were processed

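Ventral skin of C57BL/6J mice at day 28 was digested, sorted as single live cells and profiled by 10x 3′ v2 chemistry, as the labels' protocols say. Each deposited matrix gives UMI counts, unnormalised, for genes and called barcodes, made by the authors with Cell Ranger 1.3.0 on mm10, per the submitters' processing notes; the file headers give software version 3.0.1. How reads were counted (introns, strand) is not given in the sources used here. Of 11084 barcodes, 10611 passed the cell filter (300 genes or more, mitochondrial UMIs 10% or less). Scrublet marked 25 of them (0.236%), none a member, which is too few for a working caller, so none was removed. Members were scaled to 10000 counts, logged, reduced to 2000 variable genes and 20 components, and clustered by Leiden at resolution 0.5 with 15 neighbours (scanpy 1.11.5). States took a name from at least 3 markers among 50 leading genes, with a lead of 2 and no contradiction in the first 10.

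UMI counts were summed per library and tested for Ikkb_cKO against WT with edgeR 4.0.16 (filterByExpr, TMM, robust quasi-likelihood, Benjamini-Hochberg over all genes tested, threshold 0.05), in R 4.3.3; DESeq2 1.42.0 and limma 3.58.1 were alternatives. The difference from fibroblasts was the interaction of cell group and genotype with library as a block. The keratinocyte share was compared by an exact permutation test over libraries, and the suprabasal-dominant share is described without a test, since the rule used its keratins. The tests were also run on simulated data with the gene numbers of the real fits. With all 5 libraries, 3 of 50 genes passed where the simulated fold was 2. Where it was 4, 21 of 50 passed, and where it was 8, 49 of 50. In the comparison with fibroblasts, 24 of 100 genes passed at 4 and 89 of 100 at 16. False calls were 3 of 126 in the former and 9 of 122 in the latter. Gene positions come from GENCODE M21 by gene ID, of which 30934 of 31053 matched.

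The members and gene lists were chosen with earlier results of these data known. Lists are described by counts and medians, with no test of the list. Named were the rule's keratins, Ikbkb and Prrx1, from each list the 1 or 2 genes with the smallest p (up to 4 were allowed), the 10 genes of highest fold in a state, and, for the difference from fibroblasts, up to 6 of the largest called values in each direction (mean log2 CPM 6 or more). That rule's 12 largest rises and 12 largest falls in keratinocytes were empty, as no gene passed. Alternatives left out each library and changed the cell filters, keratin threshold, normalization, tool, count filter and members used. Results for some genes that these rules name are not reported here.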

Additional observations from a re-analysis of the deposited data

Results flagged for a closer look

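Each gene here was taken up because its genotype effect differed between keratinocytes and fibroblasts of the same libraries by edgeR's interaction test. Values are the log2 effect in keratinocytes minus that in fibroblasts, and a positive one means that the gene was more raised, or less lowered, in Ikkb_cKO keratinocytes. Sprr1a, a cornified envelope precursor, had a difference of 7.69 (SE 1.49, edgeR adjusted p = 0.000242). Rgs2, a regulator of G protein signalling, had a difference of 4.96 (SE 1.39, edgeR adjusted p = 0.0343), with 0, 0 and 393 UMIs in the keratinocytes of Ikkb_cKO replicates 1, 2 and 3, against 0 and 2 UMIs in those of WT replicates 1 and 2. Fibroblasts had 19.6, 19.0 and 23.8 CPM of Rgs2 in Ikkb_cKO replicates 1, 2 and 3, against 31.8 and 45.9 CPM in WT replicates 1 and 2. Plk2, a stress-induced kinase, had a difference of 3.76 (SE 1.09, edgeR adjusted p = 0.0452), with 4, 0 and 93 UMIs in the keratinocytes of Ikkb_cKO replicates 1, 2 and 3, against 1 and 4 UMIs in those of WT replicates 1 and 2. Fibroblasts had 22.7, 16.1 and 25.3 CPM of Plk2 in Ikkb_cKO replicates 1, 2 and 3, against 72.3 and 78.3 CPM in WT replicates 1 and 2. Sdc1, syndecan 1, had a difference of 3.33 (SE 0.91, edgeR adjusted p = 0.028). Ctgf, a matricellular protein, had a difference of -9.03 (SE 1.53, edgeR adjusted p = 1.22e-05). Igfbp2, an IGF-binding protein, had a difference of -7.96 (SE 1.96, edgeR adjusted p = 0.0101), with 0, 0 and 1 UMIs in the keratinocytes of Ikkb_cKO replicates 1, 2 and 3, against 0 and 4 UMIs in those of WT replicates 1 and 2. Ly6d, a surface protein of stratified epithelia, had a difference of -6.32 (SE 1.33, edgeR adjusted p = 0.00095). S100a4, a calcium-binding protein, had a difference of -6.31 (SE 1.54, edgeR adjusted p = 0.00943). Calm4, an epidermal calmodulin-like protein, had a difference of -6.18 (SE 1.46, edgeR adjusted p = 0.00701), with 0, 0 and 4223 UMIs in the keratinocytes of Ikkb_cKO replicates 1, 2 and 3, against 162 and 305 UMIs in those of WT replicates 1 and 2. In CPM the keratinocytes of Ikkb_cKO replicate 3 were the higher, with 4494, against 2208 and 2233 in WT replicates 1 and 2. Its fibroblast level was 0, 0 and 14.0 CPM in Ikkb_cKO replicates 1, 2 and 3, against 0 and 0.0846 CPM in WT replicates 1 and 2. Ikkb_cKO replicate 3 is the library whose fibroblasts held the most keratin UMIs. The part of free RNA in the result was not tested. None of the 9 remained past the threshold without WT replicate 1 or without WT replicate 2.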

How the results depend on the processing

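The count of genes called for Ikkb_cKO against WT, 0 with all 5 libraries, ranged from 0 to 101 when 1 library was left out, and was 743 without both 2-cell libraries. It was 37 under a stricter cell filter (500 genes, 5% mitochondrial), 10 with keratins at 2% or more, 1 each at 0.5% and 0.2% (Krt15, a keratin of the rule), 2 with equal cell numbers, 3 by DESeq2, 7 by voom and 144 in suprabasal-dominant members. It stayed 0 under the looser filter, DESeq2's size factors, no count filter, a count minimum of 30, removal of genes 10 times higher in other cells, basal-dominant members and state 1. Scrublet removal took out no keratinocyte, so the 0 there was fixed in advance. With the replicate number as a block it was 92; the numbers pair no mice, and same-numbered libraries correlated at -0.0694, so the block result has no pairing behind it. The count of genes differing from fibroblasts, 115, ranged from 8 to 164 with 1 library left out, and was 60 under both the looser cell filter (200 genes, 20% mitochondrial) and keratins at 2%, 53 after Scrublet, 238 with DESeq2's size factors and 403 without the 2-cell libraries. The difference in the keratinocyte share ranged from -0.322 to 1.69 percentage points with 1 library left out and was -0.0154 with keratins at 5%, where 1 cell remained. The difference in the suprabasal-dominant share ranged from -25.8 to 8.24, and was 13.6 under the stricter cell filter and 16.1 with keratins at 2%. Of 615 alternative fold changes of 32 named genes, 5 changed sign: under the block Ppl (-0.58), Elovl1 (-0.65) and Serpinb2 (-8.69), in suprabasal-dominant members Ccl27a (1.87), and Tubb5 with keratins at 0.2% (0.41). Of 99 alternative differences from fibroblasts, 2 did, both without Ikkb_cKO replicate 3: with 1 library left out, Sprr1a ranged from -3.42 to 8.68 and Rgs2 from -6.58 to 10.995. Why these values moved was not tested. Fits with keratins at 5% or without libraries under 20 members could not be made, since they leave too few libraries. The fits without the 2-cell libraries, in state 1, in suprabasal-dominant members and with keratins at 0.5% or 0.2% were chosen after seeing the data. Depth limits all of it: both 2-cell libraries miss genes under 288 and 442 CPM.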

Other observations

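Cells with fewer keratin UMIs than the rule asks also carried epithelial transcripts, most of them in Ikkb_cKO replicate 3. That library held 95 kept cells with 0.1% to 0.5% of UMIs from the 5 keratins and 37 with 0.5% to 1%. The 12 epithelial genes outside the rule summed to 38621 CPM in the 63 members of that library with 1% to 2%, against 19911 CPM at 0.5% to 1% and 13131 CPM at 0.1% to 0.5%. Krt17 had 4742 CPM and Krt79 1384 CPM in the cells at 0.1% to 0.5%, with 1069 CPM of Krt5 and 440.1 CPM of Krt10, so follicle keratins that the rule does not count were present in cells it leaves out. In the cells of that library with keratin shares above 0 and under 0.1%, Dct, a gene of pigment cells, had 430.4 CPM, so that range also holds other cells. All 5 libraries together held 111 cells at 0.1% to 0.5% and 44 at 0.5% to 1%. These ranges were looked at after the values were seen.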
